A study of Homo sapiens with 6 samples.

Results

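The 10 genes described here belong to the plasma cell programme. IRF4, PRDM1, XBP1, POU2AF1 and PAX5 are 5 of its transcriptional regulators, and SDC1, CD38, TNFRSF17, SLAMF7 and FCRL5 are 5 genes for proteins on the cell surface. They were selected by symbol among the 20030 genes of the count table, with their counts and their IGF2BP1-KD against IGF2BP1-NC values in these libraries already known. Their levels and fold changes are therefore given as a description, without a test.

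RNA from 6 samples labelled H929 was sequenced, 3 with the genotype IGF2BP1 NC and 3 with IGF2BP1 knockdown, called IGF2BP1-NC and IGF2BP1-KD here. H929, also written NCI-H929, is a long-established line from multiple myeloma, a cancer of plasma cells, and the samples are labelled as multiple myeloma cells. In the study's methods the knockdown used lentivirus with an shRNA against IGF2BP1 expressed from the human U6 promoter, stable transfectants were selected with puromycin, and IGF2BP1 is an RNA-binding protein that reads N6-methyladenosine. The methods name a pair of shRNA target sequences and do not say which of them these samples carry or what the negative control vector encodes, and no source says whether the 3 samples of a group were separate transductions or cultures, so the spread between them may be technical.

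Plasma cells are B cells at their antibody-secreting end stage. PAX5 holds B cell identity and is switched off on the way there, IRF4 and PRDM1 (BLIMP-1) drive the switch, POU2AF1 (OBF-1) is a coactivator of octamer-binding factors in B cells, and XBP1, whose mRNA is spliced by the endoplasmic reticulum sensor IRE1, expands the secretory machinery. SDC1 (CD138), CD38, TNFRSF17 (BCMA), SLAMF7 (CS1) and FCRL5 are surface proteins by which myeloma cells are recognised or targeted.

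The libraries held 16885449 to 18112179 counts each. At that depth a gene at 0 could still hold up to 3 counts, or 0.166 to 0.178 CPM (counts scaled to the library total), for counting error only. IGF2BP1 itself had 43.7 to 49.1 FPKM (fragments scaled to gene length and library total) in IGF2BP1-NC and 12.8 to 13.5 FPKM in IGF2BP1-KD libraries. Its log2 fold change was -1.85 (SE 0.065, adjusted p = 4.8e-08, quasi-likelihood test of edgeR with adjustment by Benjamini and Hochberg). IGF2BP1-NC library 1 stood apart. Of 9284 genes whose mean log2 CPM reached 3, 60 were at least 2-fold above the mean of the other IGF2BP1-NC libraries there, against 2 and 0 in libraries 2 and 3. The highest, named after its values were seen, was CHAC1, a glutathione-degrading enzyme of the stress response, with 847 counts against 43 and 71. In IGF2BP1-KD library 3, 16 genes were at least 2-fold above the other IGF2BP1-KD libraries, against 0 and 2 in libraries 1 and 2.

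The label of the cells was checked against marker lists. Of the 10 genes, 5 never exceeded 3 counts (IRF4, POU2AF1, CD38, TNFRSF17 and FCRL5), like 29.0% of the 20030 genes in the table, and 3 were above 1 CPM in every library (PRDM1, XBP1 and SDC1), like 54.2%. Of 15 other plasma cell genes, 7 passed 1 CPM in every library and 3 never exceeded 3 counts (CD27, CD28 and LAX1). The 7 were TXNDC5, PIM2, ELL2, TXNDC11, TENT5C, DERL3 and FKBP11. Of the others, JCHAIN had 1 to 10 counts, MZB1 10 to 27, GPRC5D 0 to 4, CAV1 4 to 24 and ITGA8 0 to 4. Except for PIM2 and ELL2, these genes are named after their values were seen. All 20 erythroid markers were above 1 CPM in every library. HBE1, the embryonic beta-like globin, had 78172 to 95239 counts, and HBG2, a fetal globin whose reads can be shared with HBG1, had 13883 to 19437. The median level of the erythroid markers was 112 FPKM, against 0.022 FPKM for the 5 regulators and 0.0668 FPKM for the 5 surface genes. Of 12 T and NK cell markers, 2 were above 1 CPM in every library, the most abundant being CD3D with 74 to 159 counts and PRF1 with 21 to 78. Of 12 monocyte and neutrophil markers 3 were above 1 CPM in every library, led by CD68 with 1173 to 2302 counts and LYZ with 499 to 800, and of 8 megakaryocyte markers 3 were, led by TUBB1 with 1323 to 1882 and ITGA2B with 351 to 769. In libraries labelled as myeloma, IRF4, CD38 and TNFRSF17 were thus at or under the detection floor, while erythroid transcripts were abundant. In bulk RNA, few cells of a type and little RNA per cell cannot be told apart.

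**Figure D1:**
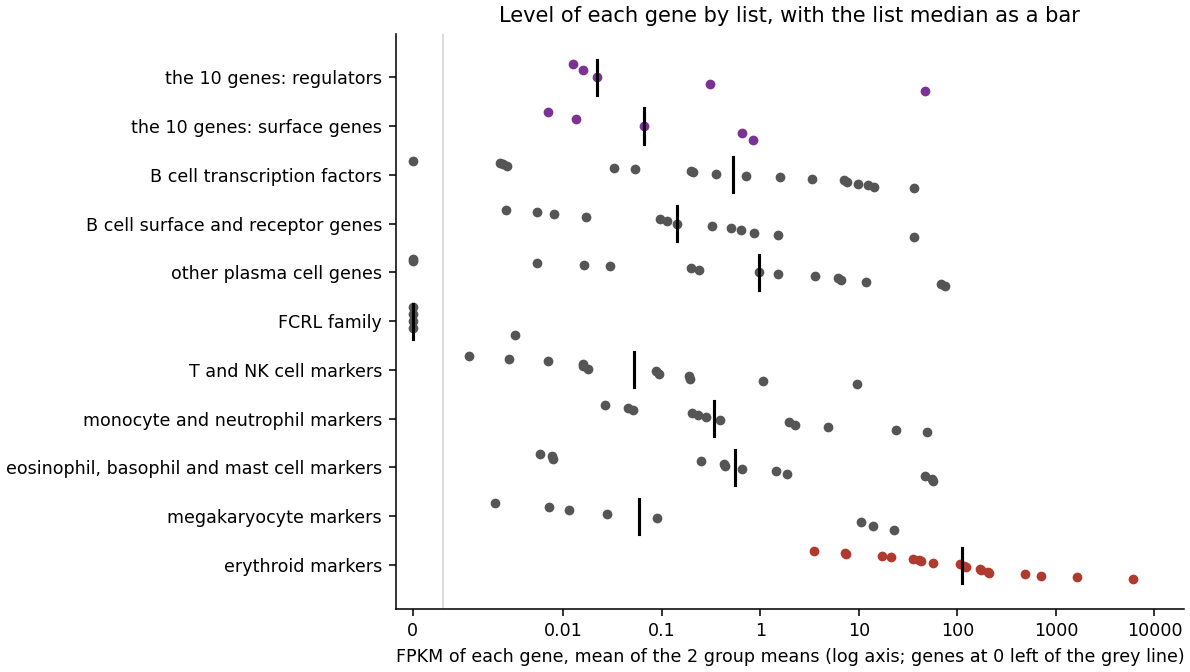
Each point is 1 gene at its FPKM, the mean of both group means, on a log axis, with genes at 0 left of the grey line, and the bar marks the median of the list. The regulators and surface genes have medians of 0.022 and 0.0668 FPKM with XBP1 alone at 46.6, while the erythroid markers run from 3.53 to 6010 FPKM.

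The levels of the 10 genes spanned a wide range. XBP1 stood at a mean of 46.6 ± 18.2 FPKM (SD over the 6 libraries), at percentile 92.5 of all genes, and no library of any other member came near its lowest value of 36.5 FPKM. SLAMF7 (0.854 ± 1.22 FPKM) and SDC1 (0.660 ± 0.152 FPKM) followed with overlapping ranges, at percentiles 48.7 and 47.3. These means pool both groups, and the place of SLAMF7 differed between them. In IGF2BP1-NC it had 0.0763 FPKM, below SDC1 (0.584) and PRDM1 (0.292), and in IGF2BP1-KD 1.63 FPKM, above SDC1 (0.736) and PRDM1 (0.332). PRDM1 (0.312 ± 0.077 FPKM, percentile 43.6) and TNFRSF17 (0.0668 ± 0.0217 FPKM) came next, each with a range apart from that of its neighbours. That of TNFRSF17 rested on 1 or 2 counts per library and lay below its floor of 0.167 to 0.179 FPKM, so its place in the order is not resolved at this depth. POU2AF1, PAX5, CD38, IRF4 and FCRL5 had means of 0.022, 0.016, 0.0134, 0.0127 and 0.00698 FPKM, and neighbours in this order overlapped.

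**Figure D2:**
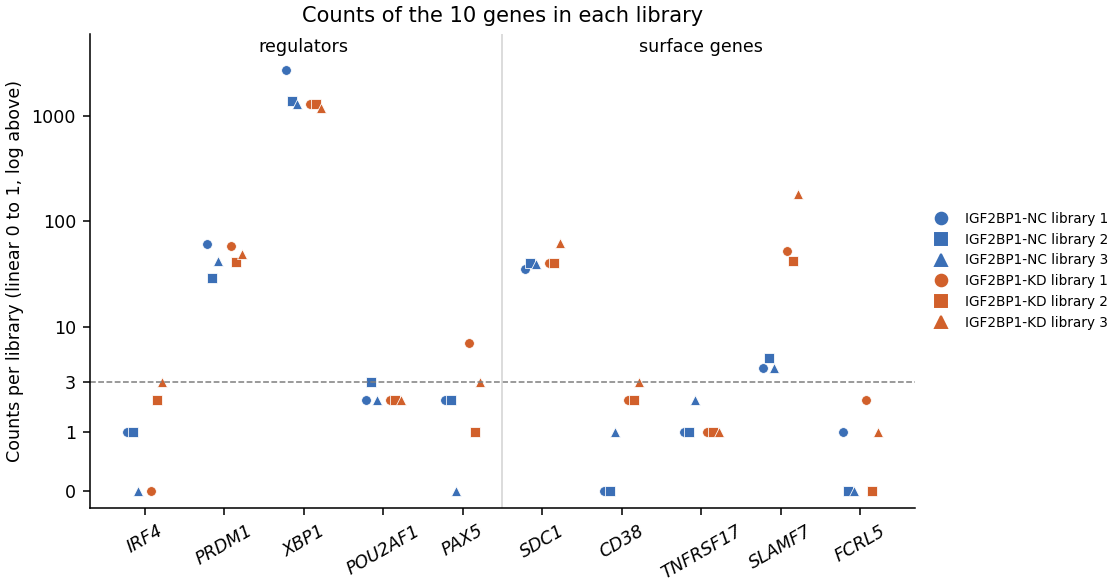
Counts of the 10 genes in each of the 6 libraries, on an axis that is linear from 0 to 1 and logarithmic above, with the dashed line at the floor of 3 counts. XBP1 lies at 1181 counts or more everywhere, PRDM1 and SDC1 between 29 and 62, SLAMF7 at 4 to 5 in IGF2BP1-NC and 42 to 181 in IGF2BP1-KD, and the others at 7 counts or fewer.

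XBP1, the transcription factor of the unfolded protein response, lies on the minus strand of chromosome 22 from 28794555 to 28800597 (GRCh38, GENCODE release 44), with 6 exons in its canonical transcript. Counts per gene do not separate its spliced from its unspliced mRNA. XBP1 is a known target of ATF6, which acts through the endoplasmic reticulum stress response element (ERSE), the letters CCAAT and CCACG with 9 bases of any kind between them. The 250 bases before the RefSeq start of XBP1 (GRCh38.p14, chr22:28800570-28800819, minus strand) are shown because they hold a match to this element, given in capitals.

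XBP1: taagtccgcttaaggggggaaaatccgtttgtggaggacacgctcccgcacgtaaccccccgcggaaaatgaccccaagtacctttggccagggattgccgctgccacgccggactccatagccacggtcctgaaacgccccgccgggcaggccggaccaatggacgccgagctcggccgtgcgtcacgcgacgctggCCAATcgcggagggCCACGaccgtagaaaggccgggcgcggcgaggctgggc

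Searched on both strands, the ERSE was in 22 of 27305 RefSeq promoter windows of 300 bases (0.0806%). Among the 10 genes, 7 had such a window (IRF4, PRDM1, XBP1, PAX5, SDC1, CD38 and FCRL5), and of these XBP1 alone held a match. Of the 32 windows of a list of IRE1 and XBP1 target genes, 3 held one (9.38%), namely those of HSPA5, CRELD2 and SERP1, shown here 5′ to 3′ on the strand that carries the letters, with CCAAT and CCACG in capitals.

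XBP1: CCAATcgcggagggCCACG
HSPA5: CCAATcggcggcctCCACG
CRELD2: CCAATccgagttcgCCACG
SERP1: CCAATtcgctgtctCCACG

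The XBP1 match ended 33 bases before the start and lay at 28800603 to 28800621, and that of HSPA5 ended 47 bases before the start on chromosome 9 at 125241391 to 125241409, both on the strand of the gene. Those of CRELD2 (chromosome 22, 49918554 to 49918572) and SERP1 (chromosome 3, 150546710 to 150546728) were on the other strand. Apart from the ERSE, 3 letter patterns known from B cell regulation were searched in the same windows. The interferon-stimulated response element GAAANNGAAA, which shares its last 4 letters with the ETS-IRF composite element, and the octamer ATTTGCAT, the site of POU2AF1's partners, were in no window of the 7 genes and in 3.65% and 1.80% of all windows. The ETS-IRF composite element GGAANNGAAA was in the window of CD38 and in 2.84% of all windows. Such matches describe the letters and not binding.

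In IGF2BP1-NC, XBP1 had 2689, 1365 and 1292 counts, and in IGF2BP1-KD 1282, 1282 and 1181, or 83.5, 42.1 and 38.4 FPKM against 38.5, 40.8 and 36.5 FPKM. IGF2BP1-NC library 1 stood far above every other library, and the remaining 5 lay close together. The fitted log2 fold change was -0.51 (SE 0.34) with all libraries and -0.08 (SE 0.07) without IGF2BP1-NC library 1. The lower mean of IGF2BP1-KD was thus carried by 1 control library.

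The genes whose pattern over the 6 libraries was most like that of XBP1 were HSPA5 (Pearson's r of log2 CPM 0.998), the zinc finger pseudogene ZNF788P (0.997) and the focal adhesion gene TES (0.995), among 9284 candidates. HSPA5, the chaperone BiP, had 11998, 7194 and 6938 counts in IGF2BP1-NC and 6771, 6738 and 6183 in IGF2BP1-KD. The same library was highest again. Over the 4 libraries without IGF2BP1-NC library 1 and IGF2BP1-KD library 3, the farthest from the XBP1 median, the correlations were 0.981 for HSPA5, 0.827 for ZNF788P and 0.693 for TES. All these values share the same libraries and describe them only.

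Of the list of 35 IRE1 and XBP1 targets, 34 of them tested, some shared the excess in IGF2BP1-NC library 1. Its largest excesses among the 9284 genes whose mean log2 CPM reached 3 lay outside the list. They were in CHAC1 (14.8-fold), INHBE (14.2-fold) and DDIT4 (11.8-fold), named after their values were seen. In 4 of the 34 (11.8%) that library was at least 1.5-fold above the mean of libraries 2 and 3, against 6.06% of the 11994 genes tested, and in 30 it was within 1.5-fold. These 4, which include 3 named after their values were seen, were the degradation factor HERPUD1 (2.74-fold), the IRE1 gene ERN1 (1.81-fold), HSPA5 (1.70-fold) and the vesicle coat gene SEC24D (1.62-fold). XBP1 itself was 2.03-fold above. Library 1 was the highest of all 6 for 11 of the 34 (32.4%), against 22.5% of the genes tested. The translocon subunit SEC61B was at the other end of the list, at 0.817 of the mean of libraries 2 and 3. Of the genes whose window held an ERSE, XBP1 and HSPA5 were thus high in this library, and CRELD2 (0.856-fold) and SERP1 (0.92-fold) were not.

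**Figure D3:**
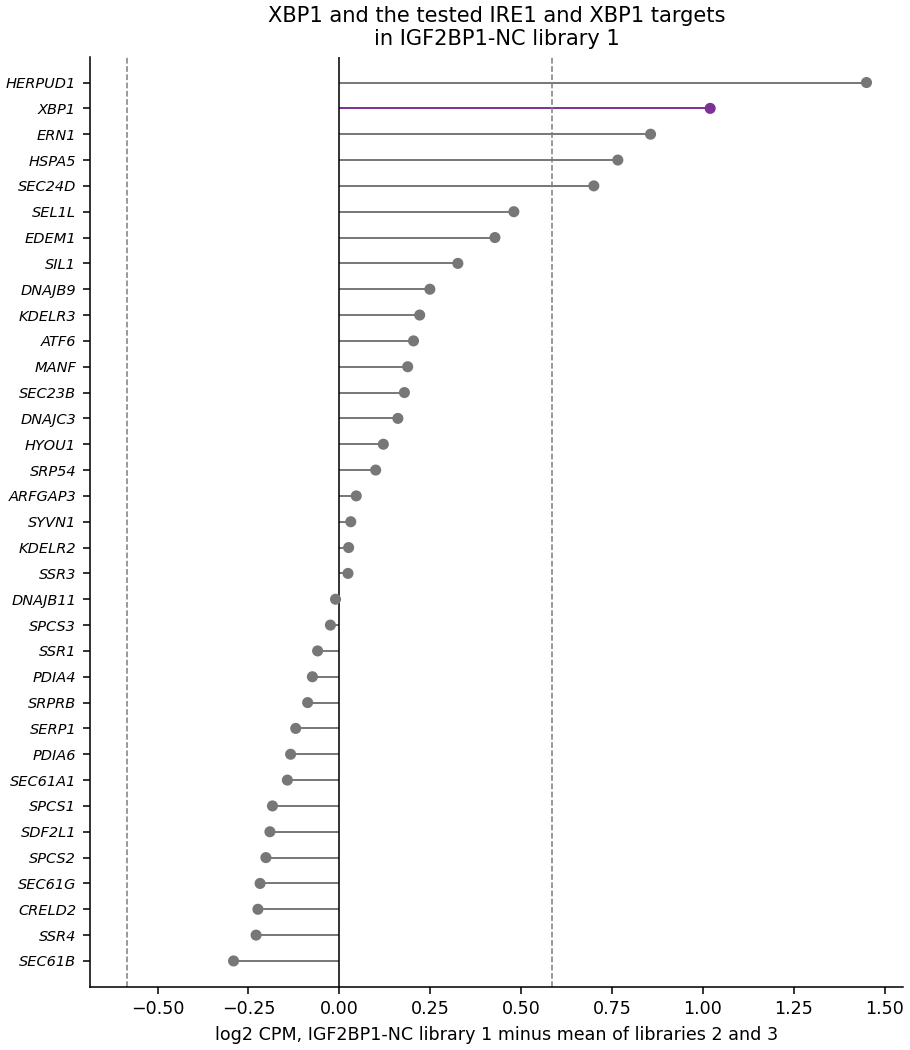
Difference in log2 CPM between IGF2BP1-NC library 1 and the mean of IGF2BP1-NC libraries 2 and 3 for XBP1 and 34 IRE1 and XBP1 targets, sorted, with dashed lines at 1.5-fold either way. HERPUD1, XBP1, ERN1, HSPA5 and SEC24D pass the upper line and no gene passes the lower one.

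Between the groups, 28.2% of the 11994 genes tested passed an adjusted p of 0.05, 13.7% higher and 14.5% lower in IGF2BP1-KD. Of the 34 IRE1 and XBP1 targets, 3 rose and 4 fell, with a median log2 fold change of 0.03 against -0.0048 over all genes tested. ARFGAP3, a GTPase-activating protein of Golgi transport, rose from 381 to 395 counts to 590 to 619 counts, a log2 fold change of 0.65 (SE 0.08, adjusted p = 0.00029, edgeR). SERP1, which stabilises membrane proteins at the translocon, rose by 0.43 (SE 0.06, adjusted p = 0.00067, edgeR) and the translocon-associated subunit SSR4 by 0.29 (SE 0.08, adjusted p = 0.0185, edgeR). SDF2L1, an endoplasmic reticulum co-chaperone factor, fell from 2693 to 3339 counts to 2092 to 2251 counts, a log2 fold change of -0.44 (SE 0.09, adjusted p = 0.0038, edgeR). The disulfide isomerase PDIA4 fell by 0.26 on the log2 scale and the vesicle coat gene SEC23B by 0.25 (adjusted p = 0.0173 and 0.0326, edgeR). ARFGAP3, SERP1 and SDF2L1 passed with any library left out. SSR4 did not pass without IGF2BP1-NC library 3 or IGF2BP1-KD library 1 or 2, PDIA4 without IGF2BP1-NC library 2 or IGF2BP1-KD library 3, and SEC23B without IGF2BP1-NC library 1 or 3 or IGF2BP1-KD library 2 or 3, with adjusted p up to 0.067, 0.0675 and 0.129. Without IGF2BP1-NC library 1, 4 targets were called higher and 4 lower. Without IGF2BP1-KD library 3, 3 were called higher and 1 lower, as PDIA4, SEC23B and the chaperone HYOU1, named after its values were seen, lost their calls (adjusted p of HYOU1 0.060, edgeR).

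PRDM1, the repressor that ends the B cell programme, lies on the plus strand of chromosome 6 from 105993463 to 106109939. It had 60, 29 and 42 counts in IGF2BP1-NC and 58, 41 and 49 in IGF2BP1-KD libraries. The groups overlapped, and the log2 fold change was 0.18 (SE 0.28), turning to -0.03 (SE 0.28) without IGF2BP1-NC library 2, the lowest, and standing at 0.48 (SE 0.28) without IGF2BP1-NC library 1, the highest. ATG5, an autophagy gene with 969 to 1218 counts, overlaps PRDM1 on the opposite strand, and the strand setting of the counting is not given, so reads of either gene could have been assigned to the other. The genes most like PRDM1 over the 6 libraries were the kinase ABL2 (r 0.982), the histone demethylase KDM7A (0.980) and the actin regulator WASF2 (0.979), with 0.918, 0.917 and 0.915 over the 4 libraries left without IGF2BP1-NC libraries 1 and 2.

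Of 11 corepressors and relatives of PRDM1, 10 were tested, with a median log2 fold change of 0.03. Among them 3 rose (PRDM4, PRDM2 and EHMT2) and 1 fell, against 13.7% and 14.5% of all genes tested. Without any one of the IGF2BP1-KD libraries PRDM4 was the 1 call left, and without IGF2BP1-NC library 2 or 3 there were 2. PRDM2 and EHMT2, named after their values were seen, kept their calls in 2 and 1 of the 6 fits with a library left out. PRDM4, another zinc finger protein of the family, rose from 863 to 1002 counts to 1107 to 1240, a log2 fold change of 0.31 (SE 0.07, adjusted p = 0.0098, edgeR). HDAC2, a histone deacetylase, fell by 0.17 on the log2 scale (adjusted p = 0.0489, edgeR) and kept its call in 1 of the 6 fits with a library left out, that without IGF2BP1-NC library 1. The 10 tested genes were above 1 CPM in every library, as PRDM1 was.

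IRF4, the factor on which myeloma cells depend, lies on chromosome 6 from 391739 to 411443. It had 1, 1 and 0 counts in IGF2BP1-NC and 0, 2 and 3 in IGF2BP1-KD libraries, all at or under the floor, so no fold is given. Of its 8 relatives in the IRF family, 6 were tested. IRF3, an effector of signalling by viral nucleic acids, was the most counted with 1127 to 1322 counts, and IRF8, the relative known from B cells and monocytes, had at most 5, both named after their values were seen. The count of calls in the family was 0 with edgeR and 0 with DESeq2, with 2 genes at an unadjusted p under 0.05 in edgeR. Over all genes tested with edgeR, 28.2% were called.

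POU2AF1 lies on chromosome 11 from 111352255 to 111455630. Its counts were 2, 3 and 2 in IGF2BP1-NC and 2 in every IGF2BP1-KD library. PAX5 lies on chromosome 9 from 36833269 to 37034268, and its counts were 2, 2 and 0 against 7, 1 and 3. The 7 counts of IGF2BP1-KD library 1 were the only value above the floor among the regulators other than PRDM1 and XBP1, and the other IGF2BP1-KD libraries overlapped the controls. These genes were too low for a comparison at this depth.

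Other B cell transcription factors were measured at very different levels. Of 18, 11 were above 1 CPM in every library and 4 never exceeded 3 counts. The 12 tested had a median log2 fold change of 0.01, and 1 rose and 2 fell, against 13.7% and 14.5% of all genes tested. ID3, an inhibitor of E proteins, rose from 126, 183 and 171 counts to 361, 374 and 643, a log2 fold change of 1.53 (SE 0.27, adjusted p = 0.0073, edgeR). The groups did not overlap, as was true of 45.6% of all genes tested. FOXO1, a factor of B cell development and metabolism, fell from 52, 49 and 58 counts to 14, 25 and 24, a log2 fold change of -1.32 (SE 0.28, adjusted p = 0.0056, edgeR), again without overlap. Both kept their call with any library left out, and without IGF2BP1-KD library 3 the list had 2 rises and 3 falls.

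SDC1, the heparan sulfate proteoglycan CD138 by which plasma cells are sorted, lies on the minus strand of chromosome 2 from 20200797 to 20225433. It had 35, 40 and 39 counts in IGF2BP1-NC and 40, 40 and 62 in IGF2BP1-KD libraries, or a mean of 0.584 ± 0.037 against 0.736 ± 0.197 FPKM (SD, n = 3). The log2 fold change of 0.32 (SE 0.25) dropped to 0.09 (SE 0.26) without IGF2BP1-KD library 3, the highest. The groups overlapped at 40 counts. The lysosomal enzyme ASAH1 (r 0.994), the autophagy gene UVRAG (0.992) and the mitochondrial RNA gene FASTKD5 (0.991) were most like it, and without IGF2BP1-NC library 1 and IGF2BP1-KD library 3 the correlations over 4 libraries were 0.886, 0.785 and 0.356.

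Of 14 other syndecans, heparan sulfate enzymes and partners, 12 were tested, with a median log2 fold change of 0.20. Among them 4 rose (SDCBP, SDC3, EXT2 and NDST1), against 13.7% of all genes tested. The count was 1 without IGF2BP1-NC library 2, where SDCBP alone kept its call, and 2 without IGF2BP1-NC library 3 or IGF2BP1-KD library 1 or 3. SDCBP (syntenin), which binds the tail of syndecans, rose from 2205, 1983 and 2063 counts to 2568, 2560 and 3232, a log2 fold change of 0.43 (SE 0.09, adjusted p = 0.0066, edgeR), and passed with any library left out. SDC3, a syndecan best known from neurons and, like EXT2 and NDST1, named after its values were seen, had 2142 to 2624 counts in IGF2BP1-NC and 2682 to 3430 in IGF2BP1-KD. Its mean was 23.1 ± 3.18 against 30.7 ± 3.58 FPKM (SD, n = 3), a log2 fold change of 0.40 that lost its call without IGF2BP1-NC library 2 or 3 (adjusted p up to 0.0776, edgeR). SDC4 and SDC2, likewise named after their values were seen, had 7.88 and 0.091 FPKM in IGF2BP1-NC and 7.36 and 0.092 FPKM in IGF2BP1-KD. In these libraries SDC3 and SDC4 thus had higher levels per length than SDC1, and SDC2 a lower one.

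CD38, an NAD-consuming ectoenzyme and antibody target, lies on chromosome 4 from 15778275 to 15853232. It had 0, 0 and 1 counts in IGF2BP1-NC and 2, 2 and 3 in IGF2BP1-KD libraries. The values did not overlap but were all at or under the floor, so no fold is given. A list of 9 genes held genes of NAD metabolism, related ectoenzymes and the adhesion gene PECAM1. Of these, 6 were tested and 1 passed, against 28.2% of all genes tested. This was NAPRT, an enzyme that makes NAD from nicotinic acid. It fell from 1087, 1229 and 1081 counts to 916, 848 and 716, a log2 fold change of -0.45 (SE 0.10, adjusted p = 0.0071, edgeR), and passed with any library left out.

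TNFRSF17, the receptor BCMA for the survival factors APRIL and BAFF, lies on chromosome 16 from 11965210 to 11968068. It had 1, 1 and 2 counts in IGF2BP1-NC and 1 in every IGF2BP1-KD library, under the floor throughout. NPIPB2 overlaps it on the opposite strand with 0 to 2 counts. The ligand genes TNFSF13 and TNFSF13B had at most 3 counts and 16 to 25 counts per library, and the sister receptor gene TNFRSF13B at most 1, values seen before these genes were named. Of 9 genes of this axis 7 were tested, with a median log2 fold change of -0.19. With all libraries 1 rose and 1 fell, against 13.7% and 14.5% of all genes tested. Without IGF2BP1-NC library 1 there were 3 falls. The adaptor TRAF2 fell from 932, 925 and 997 counts to 830, 714 and 707, a log2 fold change of -0.34 (SE 0.08, adjusted p = 0.0076, edgeR), and passed with any library left out. The ubiquitin ligase TRAF6 rose by 0.26 (SE 0.09, adjusted p = 0.0423, edgeR) and kept its call with IGF2BP1-NC library 1 left out and with no other library left out (adjusted p up to 0.129).

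SLAMF7, a self-binding receptor of the SLAM family and an antibody target in myeloma, lies on the plus strand of chromosome 1 from 160739057 to 160754821, with 7 exons in its canonical transcript. It passed the count filter through the IGF2BP1-KD libraries. It had 4, 5 and 4 counts in IGF2BP1-NC and 52, 42 and 181 in IGF2BP1-KD libraries. The groups did not overlap, as was true of 45.6% of all genes tested, all IGF2BP1-NC libraries were just above the floor, and IGF2BP1-KD library 3 held several times the counts of the other IGF2BP1-KD libraries. The mean was 0.0763 ± 0.011 FPKM against 1.63 ± 1.38 FPKM (SD, n = 3), and the log2 fold change was 4.37 (SE 0.80). It was 4.32 without IGF2BP1-NC library 1 and 3.41 without IGF2BP1-KD library 3. Of the 4 members with enough counts to be fitted (PRDM1, XBP1, SDC1 and SLAMF7), SLAMF7 was the 1 past the threshold that 28.2% of all genes passed, and it did not pass without IGF2BP1-NC library 1 or 3. Since this contrast was used to choose the genes, nothing is read from that count.

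**Figure D4:**
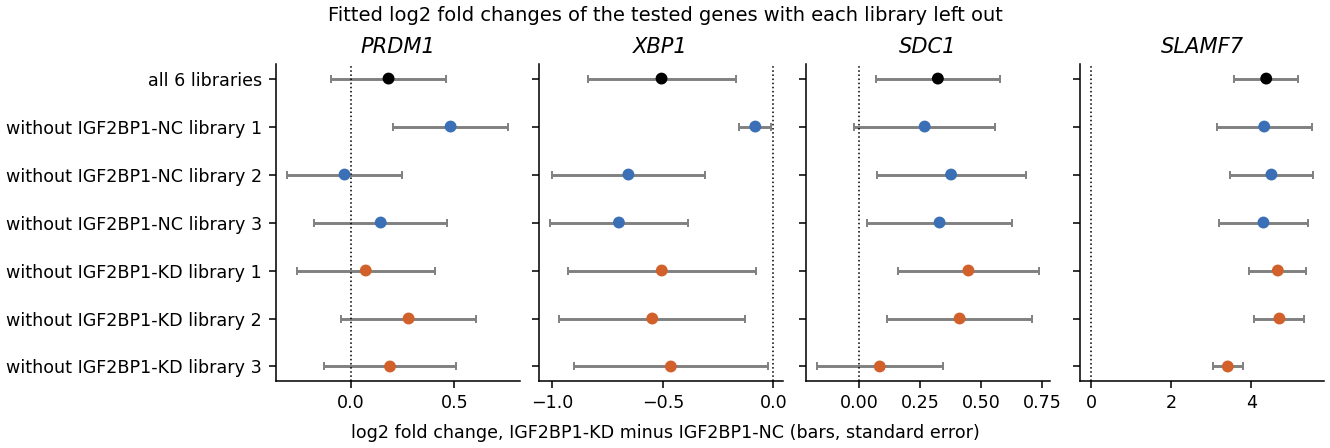
Fitted log2 fold change of PRDM1, XBP1, SDC1 and SLAMF7 with all 6 libraries and with each library left out, with bars for the standard error and a separate axis per gene. XBP1 moves from -0.51 to -0.08 without IGF2BP1-NC library 1, SDC1 from 0.32 to 0.09 without IGF2BP1-KD library 3, and SLAMF7 stays between 3.41 and 4.70.

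The SLAM genes sit next to each other on chromosome 1. In order of position from 160485030 to 160862887 they are SLAMF6, CD84, SLAMF1, CD48, SLAMF7, LY9 and CD244, of which 3 were tested. SLAMF6 (Ly108), the first of the cluster, rose from 36, 31 and 28 counts to 80, 82 and 155, a log2 fold change of 1.74 (SE 0.29, adjusted p = 0.0016, edgeR). CD84, named after its values were seen, had 257, 239 and 216 counts against 331, 368 and 669, a log2 fold change of 0.95 that missed the threshold (SE 0.29, adjusted p = 0.0587, edgeR) and passed it without IGF2BP1-KD library 1 or 3. IGF2BP1-KD library 3 was the highest for SLAMF6, CD84 and SLAMF7 alike. The genes between and beyond them, SLAMF1, LY9 and CD244, had at most 3 counts and CD48 at most 6.

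Of 11 other SLAM family genes and signalling partners, 5 were tested, with a median log2 fold change of -0.14. Among them 1 rose and 2 fell, against 13.7% and 14.5% of all genes tested. SH2D1B (EAT-2), the adaptor through which SLAMF7 signals in natural killer cells, fell from 121, 103 and 63 counts to 36, 34 and 42, a log2 fold change of -1.35 (SE 0.27, adjusted p = 0.0039, edgeR). The kinase FYN, named after its values were seen, fell by 0.44 on the log2 scale (SE 0.10, adjusted p = 0.0067, edgeR), and the adaptor gene SH2D1A had 14 to 23 counts in every library. SLAMF6, SH2D1B and FYN passed with any library left out.

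The genes most like SLAMF7 over the 6 libraries were the lysosomal protease gene CTSB (r 0.999), the cyclin gene CCNY (0.998) and ASCC2, of a complex that rescues stalled ribosomes and repairs alkylated DNA (0.997). CTSB had 2943, 3024 and 3091 counts in IGF2BP1-NC and 5814, 5351 and 8957 in IGF2BP1-KD libraries. Over the 4 libraries without IGF2BP1-NC library 3 and IGF2BP1-KD library 3, the correlations rounded to 1.0 for CTSB and CCNY and were 0.997 for ASCC2. These libraries still held the difference between the groups, and the genes were picked by their correlation. The values therefore describe the libraries only.

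Some markers of eosinophils, basophils and mast cells were higher in the same libraries as SLAMF7. Of 12, 6 were tested and 6 were called higher, against 13.7% of all genes tested. EPX, HDC and MS4A2 were low in IGF2BP1-NC and passed the count filter through the IGF2BP1-KD libraries, so that count is partly set by the filter. It was 5 without IGF2BP1-NC library 1, where MS4A2 lost its call, and 3 without IGF2BP1-NC library 3, where PRG2, MS4A3 and MS4A2 did. The summed level of the list was 197 to 217 CPM in IGF2BP1-NC and 457 to 794 CPM in IGF2BP1-KD libraries. MS4A3, a granulocyte membrane protein, rose from 482, 426 and 312 counts to 2012, 2014 and 4461, a log2 fold change of 2.80 (SE 0.46, adjusted p = 0.0151, edgeR), and lost its call without IGF2BP1-NC library 3 (adjusted p = 0.0567). GATA2, a factor these lineages share with progenitors, rose by 0.51 (SE 0.06, adjusted p = 0.00018, edgeR). The eosinophil granule genes PRG2 and EPX had 105 to 175 and 1 to 4 counts in IGF2BP1-NC and 1473 to 4026 and 17 to 76 in IGF2BP1-KD libraries. The IgE receptor gene MS4A2 had 5, 16 and 6 counts against 134, 149 and 492, a log2 fold change of 4.83 (SE 0.89). Other markers did not share this pattern. FCER1A, another IgE receptor gene, had 7 counts in every IGF2BP1-NC library and 2, 5 and 3 in IGF2BP1-KD. CLC and PRG3 were high in IGF2BP1-KD library 3 alone (68 and 41 counts, against at most 9 and 6 elsewhere). The mast cell genes CPA3, TPSAB1 and TPSB2 had at most 1 count. Rises of lineage markers were not limited to this list. Of 20 erythroid markers, all tested, 3 were called higher and 9 lower, against 13.7% and 14.5% of all genes tested. The 3 were SLC4A1, EPB42 and AHSP, named after their values were seen. SLC4A1 had 134 to 286 counts in IGF2BP1-NC and 1069 to 1150 in IGF2BP1-KD, a log2 fold change of 2.50 (SE 0.24).

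Some neutrophil markers were raised in a different set of libraries. S100A9 had 2, 6 and 4 counts in IGF2BP1-NC and 7, 164 and 106 in IGF2BP1-KD, S100A8 had 5, 7 and 2 against 3, 94 and 56, MPO 2, 5 and 8 against 4, 24 and 25, and ELANE 0, 2 and 2 against 3, 17 and 17. IGF2BP1-KD libraries 2 and 3 were thus high for these genes and IGF2BP1-KD library 1 was not, whereas SLAMF7 was raised in IGF2BP1-KD library 1 as well. None of these neutrophil genes passed the count filter with all libraries. Of the 4 genes of the list that did, 0 were called, against 28.2% of all genes tested, and 4 genes are too few to compare. The pattern was not shared by AZU1, with 40, 25 and 20 counts against 24, 42 and 38. Nor was it shared by CEBPE, with 5, 10 and 6 counts against 5, 6 and 32. The granulocyte genes of both lists other than MS4A3 and GATA2 are named after their values were seen. The part of such cells' transcripts in the SLAMF7 values was not tested.

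**Figure D5:**
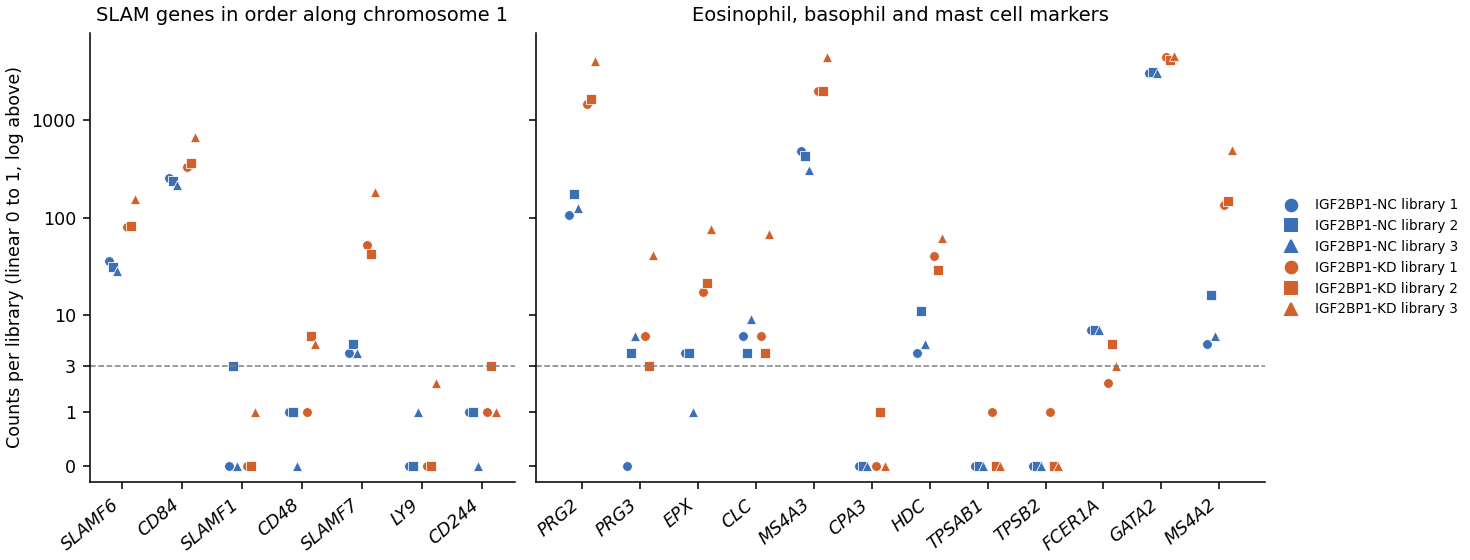
Counts per library of the 7 SLAM genes in their order along chromosome 1 (left) and of 12 eosinophil, basophil and mast cell markers (right), on an axis linear from 0 to 1 and logarithmic above, with the dashed line at 3 counts. IGF2BP1-KD library 3 is the highest for SLAMF7 at 181 counts, for SLAMF6 at 155 and for MS4A3 at 4461.

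FCRL5, an inhibitory Fc receptor-like protein, lies on the minus strand of chromosome 1 from 157513377 to 157552515. It had 1, 0 and 0 counts in IGF2BP1-NC and 2, 0 and 1 in IGF2BP1-KD libraries. Of its 5 relatives FCRL1 to FCRL4 and FCRL6, 4 were at 0 in every library and FCRL2 had 1 count in 1 library, so the family was not detected, each 0 allowing up to 3 counts.

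The remaining lists placed the 10 genes among their B and plasma cell neighbours. Of 13 B cell surface and receptor genes 6 were tested. Among them 1 rose and 0 fell, against 13.7% and 14.5% of all genes tested. This was CD22, an inhibitory receptor for sialic acids. CD22 had 56, 62 and 67 counts against 99, 96 and 148, a log2 fold change of 0.90 (SE 0.21, adjusted p = 0.0093, edgeR). It passed with any library left out. Of 15 other plasma cell genes 9 were tested, with a median log2 fold change of 0.06. Among them 2 rose and 1 fell, against 13.7% and 14.5% of all genes tested. TXNDC11, a thioredoxin-like gene named after its values were seen, lost its call with any library left out (adjusted p 0.0593 to 0.146, edgeR), and neither rise remained without IGF2BP1-NC library 2 or IGF2BP1-KD library 1 or 2. ELL2, an elongation factor that favours secretory immunoglobulin mRNA, rose by 0.33 (SE 0.10, adjusted p = 0.0273, edgeR) but not without IGF2BP1-NC library 2 or IGF2BP1-KD library 1 or 2 (adjusted p up to 0.101). PIM2, a survival kinase of myeloma cells, fell from 3053, 3269 and 3069 counts to 2079, 1975 and 2266, a log2 fold change of -0.57 (SE 0.07, adjusted p = 0.00023, edgeR), and passed with any library left out. The 7 that passed 1 CPM in every library included TXNDC5 with 3876 to 4602 counts and TENT5C with 586 to 756, while JCHAIN had at most 10 counts and CD27 and CD28 were at 0 in every library, all 5 named after their values were seen. Over all 11 lists, 107 of 148 genes were tested and 28 passed (26.2%), 16 higher and 12 lower, a share near the 28.2% of all genes tested.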

How the data were processed

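Messenger RNA of 6 samples was sequenced with a stranded kit. Reads were trimmed (Trimmomatic) and aligned to GRCh38 (HISAT2) by the authors, who deposited unnormalized counts per gene from HTSeq-count and FPKM, described as from Cufflinks. The strand setting of the counting, the tool versions and the annotation release are not given in the sources used here, so reads of overlapping or near-identical genes may be misassigned. The deposited tables also hold annotation columns, which were not used.

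Counts were fitted in R 4.3.3 with edgeR 4.0.16 (TMM, filterByExpr, robust glmQLFit, two-sided glmQLFTest, group as the only term) over 11994 genes with Benjamini-Hochberg adjustment, a call being an adjusted p under 0.05. The fit was run on simulated counts with the same dispersion in every library and changes only in well-counted genes. It therefore did not cover a library standing apart or a low-count gene such as SLAMF7. Levels between genes are compared on FPKM, the only length-scaled unit. Alternatives were DESeq2 1.42.0, library size or upper-quartile scaling, no filter or at least 10 counts in every library, the replicate number as a block, limma 3.58.1 on log2(FPKM + 1) or log2(FPKM + 0.1) where the mean FPKM was 1 or more, and each library left out. Coordinates are from GENCODE release 44, and promoter windows (250 bases before to 50 after the start) from RefSeq, GRCh38.p14. TENT5C was matched to its older symbol FAM46C. Python 3.11.15, pandas 2.3.3 and matplotlib 3.10.9 made the tables and figures.

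The members, the lists and the tests were chosen with earlier results of these data known. Named are every member, the largest called rise and fall of each pathway list (3 each way for IRE1 and XBP1 targets), the 3 genes most correlated with each tested member, the targeted gene and the 2 most abundant genes of each marker list.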

Additional observations from a re-analysis of the deposited data

How the results depend on the processing

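The number of genes called was 3386, 2814 to 3538 under the other settings and 2290 to 3991 with each library left out, and that of pathway list genes 28, 24 to 28 and 19 to 30. No called gene of the lists changed direction under another setting that tested it, and the median of all genes moved by at most 0.030 (log2). The log2 fold change of SLAMF7 was 3.41 to 4.70 with each library left out, past the threshold except without IGF2BP1-NC library 1 (4.32) or 3 (4.30), and 4.22 to 4.40 under the settings that tested it. Since this contrast was used to choose the genes, nothing is read from where it passed. SLAMF7 was not tested with at least 10 counts in every library, nor, like PRDM1 and SDC1, with a mean FPKM of at least 1. PRDM1 ran from -0.031 to 0.482 with each library left out, reversing without IGF2BP1-NC library 2, SDC1 from 0.0852 to 0.448 and XBP1 from -0.699 to -0.0814. XBP1 alone had at least 1 FPKM in every library, 1 member against 3 above 1 CPM. IRE1 and XBP1 targets called were 7, 8 without IGF2BP1-NC library 1 and 4 (3 higher, 1 lower) without IGF2BP1-KD library 3, and the calls of each list with a library left out, given beside it, were likewise added after seeing the data. With the replicate number as a block, 2913 genes were called, and the deviations of same-numbered libraries correlated at -0.052, 0.036 and -0.106, so the numbers were not read as pairs. With the replicate block the fold changes of the members kept their direction. The count filter left 6 of the 10 genes untested, like 40.1% of the 20030 genes in the table.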
